A study of Homo sapiens with 2 samples.

Results

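The genes described here are 30 genes of cholesterol and fatty acid synthesis, listed by symbol: enzymes of the sterol pathway, enzymes of fatty acid synthesis, the SREBP transcription factors, their sterol sensors and a pair of sterol transport proteins. A gene was measured when the array carried a probe set annotated to its symbol alone, which held for 28 of the 30, out of 19775 genes with such a probe set in all. FDFT1 and CYP51A1 had no probe set of their own and were not analysed here. Expression was measured in SW620, an established human colorectal cancer line grown in RPMI-1640 medium, on 2 Affymetrix 3′ expression arrays. SOX2 was knocked down in one culture with a lentivirus expressing a short hairpin RNA, and the mock knockdown culture received a hairpin without a target; both therefore carried a lentiviral hairpin. The sources used here do not say whether the cultures were clones or mixed populations, or how long after infection RNA was taken. A description field names the liver of mice, which goes against the organism, titles and source names.

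With a single array for each condition the study has no replicates, differences cannot be tested, and precision is limited by the number of arrays. In such bulk RNA, fewer cells of a type and less RNA per cell cannot be told apart. Pairs of intensities below give the mock array first and the SOX2 knockdown array second. Intensities ran from 5.72 to 23253 over 54613 probe sets, with medians of 69.0 and 68.1. Values under 68.5, the median of all of them, were treated as lying under a floor; 13609 genes reached that floor on one array or both, and all 28 measured members reached it on both. The targeted gene was lower on its array: the brightest SOX2 probe set stood at 2077 and 20.9, the second under the floor, and a further one at 333 and 120. All 9 markers of colon epithelium had probe sets, of which 8 and 9 reached the floor, with a summed intensity of 48663 and 59703. Most of that sum came from EPCAM, KRT8, KRT18 and KRT19. Of the 9 markers 7 lay above 0 and 2 below. VIL1 was lower, at 2063 and 867 (-1.25). The remaining ones were dim: CDX1 stood at 130 and 133, CDX2 at 69.2 and 116, and GPA33 at 96.9 and 84.3. CDH17 stood at 35.5, under the floor, and 78.0. The hepatocyte marker ALB lay under the floor on both arrays, as did the leukocyte markers PTPRC and CD3E. Other markers of those lists differed: LYZ went from 213 to 11691 and SERPINA1 from 313 to 4301. These 2 genes held most of the sums of their lists on the SOX2 knockdown array. CD14 went from 43.6, under the floor, to 156. Of the hepatocyte list, TTR differed by 0.49, CYP3A4 by 0.14 and TF by -0.19, and FGB stayed under the floor. Summed intensity went from 335 to 11928 over the 4 leukocyte markers with a probe set and from 775 to 4800 over 6 hepatocyte markers. It was 619 and 519 for 6 fibroblast markers and 175 and 156 for 3 endothelial markers. The part of such differences in the results below was not tested.

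Cells make cholesterol from acetyl-CoA by way of mevalonate, farnesyl pyrophosphate, squalene and lanosterol. The pathway is governed by SREBP transcription factors, which are held in the endoplasmic reticulum by SCAP and INSIG proteins while sterols are plentiful. When sterols run low, SCAP carries the SREBPs to the Golgi, where proteases release the part that enters the nucleus and binds sterol regulatory elements, usually together with NF-Y and Sp1. SREBP-2, from SREBF2, mainly serves sterol genes and SREBP-1, from SREBF1, mainly fatty acid genes. Proliferating tumour cells, colorectal ones included, draw on both routes for membranes.

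SREBPs and their partner NF-Y act through short promoter motifs, so 5 member promoters are shown for the 250 bases before the start site, from RefSeq on GRCh38.p14. SREBF2 is shown because it alone among the members with a promoter in that table held TCACNCCAC, a spelling of the sterol regulatory element. Other spellings of the element were not searched. HMGCS1 and MSMO1 are shown as members lower on the SOX2 knockdown array, and TM7SF2 and NSDHL as members higher on it. Capitals mark CCAAT on either strand (ATTGG when read on the other one) and, in SREBF2, also TCACCCCAC. HMGCS1 has a second start site in that table, not shown.
SREBF2, chr22:41832855-41833104, plus strand: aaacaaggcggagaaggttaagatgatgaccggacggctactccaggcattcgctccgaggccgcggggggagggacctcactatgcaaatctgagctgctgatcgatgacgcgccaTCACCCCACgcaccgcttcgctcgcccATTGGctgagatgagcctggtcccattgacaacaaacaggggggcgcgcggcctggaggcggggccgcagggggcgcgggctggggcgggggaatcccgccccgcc
HMGCS1, chr5:43313413-43313662, minus strand: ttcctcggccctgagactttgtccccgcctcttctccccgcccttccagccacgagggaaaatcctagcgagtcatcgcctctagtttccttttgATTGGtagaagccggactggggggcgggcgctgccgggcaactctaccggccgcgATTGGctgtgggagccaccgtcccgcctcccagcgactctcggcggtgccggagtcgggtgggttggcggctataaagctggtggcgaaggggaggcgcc
MSMO1, chr4:165327419-165327668, plus strand: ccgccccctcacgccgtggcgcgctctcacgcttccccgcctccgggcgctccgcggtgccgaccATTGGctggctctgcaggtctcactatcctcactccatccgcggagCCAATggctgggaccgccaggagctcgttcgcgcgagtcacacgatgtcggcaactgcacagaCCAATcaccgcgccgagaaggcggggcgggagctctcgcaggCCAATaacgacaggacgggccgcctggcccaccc
TM7SF2, chr11:65111622-65111871, plus strand: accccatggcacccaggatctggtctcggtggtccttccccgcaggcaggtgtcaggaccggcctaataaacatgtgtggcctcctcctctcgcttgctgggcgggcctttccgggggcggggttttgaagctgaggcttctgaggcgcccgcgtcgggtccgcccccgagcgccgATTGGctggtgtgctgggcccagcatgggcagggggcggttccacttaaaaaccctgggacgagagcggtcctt
NSDHL, chrX:152830813-152831062, plus strand: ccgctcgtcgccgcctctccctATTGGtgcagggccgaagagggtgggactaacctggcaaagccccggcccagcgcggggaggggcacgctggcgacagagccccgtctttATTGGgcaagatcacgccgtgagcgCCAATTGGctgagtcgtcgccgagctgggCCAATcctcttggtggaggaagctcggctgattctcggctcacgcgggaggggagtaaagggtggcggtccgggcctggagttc
Capitals appear once as CCAAT and once as the sterol element in SREBF2, 2 times in HMGCS1, 4 times in MSMO1, once in TM7SF2 and 5 times in NSDHL, where a pair of them overlap. The lower and the higher genes shown thus both carry the NF-Y letters.

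Over the members, 26 of 30 matched the RefSeq promoter table, with 36 start sites between them; ACAT2, FDFT1, SQLE and FASN did not match. Both strands were searched for exact matches. The sterol regulatory element, spelled TCACNCCAC, was in 1 of 36 member promoters (2.78%) and in 0.883% of all 35116 promoters. CCAAT was in 23 of the 36 (63.9%), against 11240 of all 35116 promoters, and the GC box CCGCCC, bound by Sp1, in 32 (88.9%), against 42.6% of all promoters. The E-box CACGTG, which SREBP-1 can also bind, was in 4 (11.1%), against 6.34%. Start sites of a gene can overlap, so these promoters are not independent. Members higher on the SOX2 knockdown array held CCAAT in 8 of 11 genes with a promoter, and members lower on it in 11 of 14, so the letters were common on both sides. A match is not evidence of binding, and a lack of match says only that those letters were not in the window.

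SOX2 knockdown was compared with mock knockdown for each member, as SOX2 knockdown minus mock on the log2 scale. The series asked which genes depend on SOX2 in a colorectal cancer line. The members split: 12 lay above 0 and 16 below, with a median of -0.16, where all 13609 genes had a median of -0.0063. At least 2-fold higher were 3 of the 28 (10.7%), SQLE, ACACA and TM7SF2, where 8.44% of all genes were. None was at least 2-fold lower, where 7.29% of all genes were. At a limit of 1.5-fold, 6 members were higher and 4 lower, against backgrounds of 15.0% and 14.8% of all genes, 29.8% together. Within 1.5-fold lay 64.3% of members and 70.2% of all genes. The share of members past either limit was thus close to that of all genes. Probe sets of a gene differed with an SD of 0.34 on the log2 scale over 5623 genes with several above the floor, and of 0.22 over 13 such members. That spread holds no variation between cultures or arrays.

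**Figure D1:**
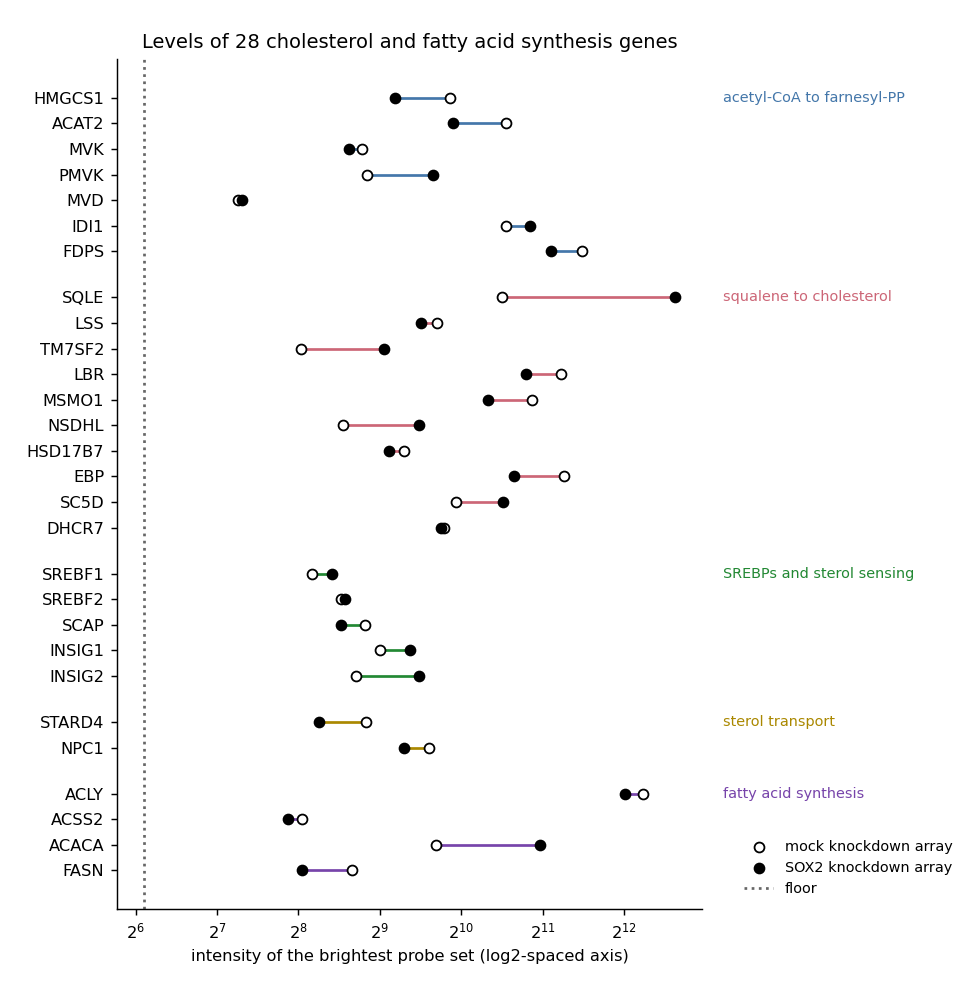
Intensity of the brightest probe set of each measured member on the mock knockdown array (open) and the SOX2 knockdown array (filled), on a log2-spaced axis, with the floor of 68.5 dotted. The widest gap is that of SQLE, from 1441 to 6329; levels of different genes come from different probes and are not comparable with each other.

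The first steps, from acetyl-CoA to farnesyl pyrophosphate, held 7 measured members, 3 above 0 and 4 below, with none past 2-fold and a median of -0.15. HMGCS1, which makes HMG-CoA, had intensities of 926 and 580, a difference of -0.67. Its further probe set differed by -0.40, and 12.6% of all genes lay as low or lower than the first. ACAT2, the cytosolic thiolase that supplies acetoacetyl-CoA, stood at 1502 and 957, a difference of -0.65. The entry of the pathway was thus lower on the SOX2 knockdown array at both enzymes, short of 2-fold. The kinases that follow went different ways. MVK, mevalonate kinase, stood at 439 and 394 (-0.15), and its other probe sets ranged from -0.21 to -0.033. PMVK, phosphomevalonate kinase, stood at 457 and 802, a difference of 0.81, the largest of these 7 genes. PMVK and ACAT2 each had a single probe set, which can match several transcripts by its suffix. The decarboxylase MVD had 153 and 159, a difference of 0.05. IDI1, the isomerase of isopentenyl pyrophosphate, stood at 1491 and 1840 (0.30), but its probe sets, 3 of which can match several transcripts by their suffix, ranged from -0.071 to 0.41. FDPS, which joins the isoprene units to farnesyl pyrophosphate, stood at 2870 and 2204, a difference of -0.38. The route from acetyl-CoA to farnesyl pyrophosphate thus held enzymes on both sides of 0.

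The later steps, from squalene to cholesterol, held 10 measured members, 4 above 0 and 6 below, with a median of -0.12 and 2 past 2-fold, both higher. SQLE, the squalene epoxidase and a rate-limiting enzyme of the sterol branch, had intensities of 1441 and 6329. Its difference of 2.13, or 4.39-fold, was the largest of the members, and 2.77% of all genes lay as high or higher. A pair of further probe sets gave 2.12 and 2.29, and another stood at 34.4, under the floor, and 144, a difference of at least 1.07. All 4 probe sets of SQLE thus lay above 0. LSS, which closes lanosterol's rings and acts next, stood at 833 and 726, a difference of -0.20.

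Sterol reductases encoded by a pair of related genes went opposite ways. TM7SF2 stood at 263 and 530, a difference of 1.01, while LBR, the lamin B receptor with the same reductase activity, stood at 2393 and 1775, a difference of -0.43. TM7SF2 had a single probe set, just past 2-fold, which can match several transcripts by its suffix. It was under 2-fold, at 0.98, with quantile normalization and, at 0.93, with a pseudocount of 32, each of which left 2 members called. The enzymes that strip the methyl groups at carbon 4 also split. MSMO1, the oxidase, stood at 1861 and 1287 (-0.53). NSDHL, the dehydrogenase of that complex, stood at 372 and 712, a difference of 0.93, and its other probe set at 277 and 746, a difference of 1.43. HSD17B7, the ketoreductase, stood at 630 and 552 (-0.19), on a probe set that can match several transcripts by its suffix.

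Among the last enzymes, EBP, the sterol isomerase, was lower on the SOX2 knockdown array in each of 4 probe sets. Its brightest stood at 2447 and 1603, a difference of -0.61, and the others ranged from -1.18 to -0.30. SC5D, the desaturase that acts next, was higher, with 977 and 1465 and a difference of 0.58. DHCR7, which carries out the final reduction to cholesterol, stood at 887 and 858, a difference of -0.05, and its other probe set at -0.033. The end of the route thus held a lower, a higher and a near-equal enzyme in succession.

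**Figure D2:**
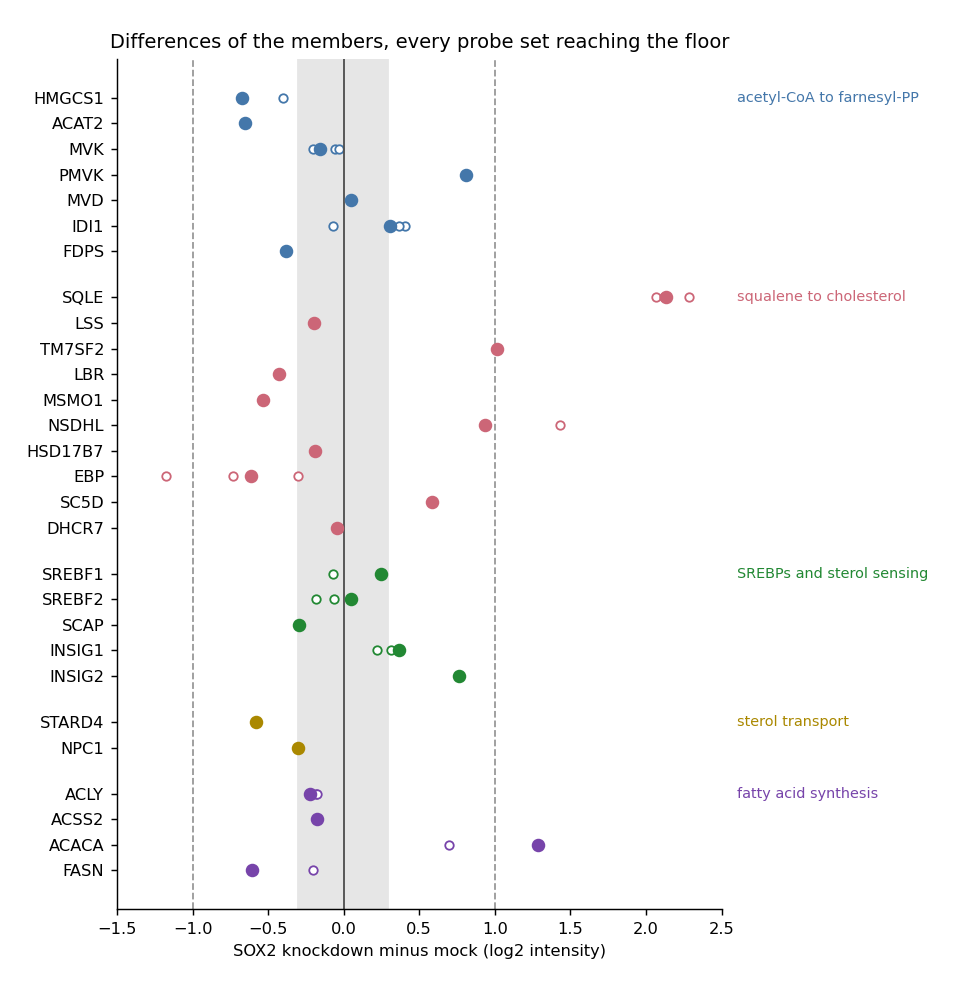
Difference of each member, SOX2 knockdown minus mock on the log2 scale, for the brightest probe set (filled) and for other probe sets reaching the floor on at least 1 array (open), as deposited, with 2-fold dashed and the middle 50% of all genes shaded, from -0.30 to 0.30. SQLE lies apart at 2.12 to 2.29 in its 3 probe sets above the floor on both arrays, and the remaining sterol genes lie on both sides of 0.

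The transcription factors and their sensors held 5 genes, 4 above 0, with a median of 0.25 and none past 2-fold. SREBF1 stood at 287 and 341 (0.25), with its other probe set at -0.071. SREBF2 stood at 368 and 380 (0.05), with its others at -0.061 and -0.18. The probe sets of each factor thus lay on both sides of 0. SCAP, the escort of the SREBPs, stood at 450 and 368, a difference of -0.29. INSIG1, the sterol-induced retention protein that is itself an SREBP target, stood at 513 and 661, a difference of 0.36, and its other probe sets gave 0.22 and 0.31. INSIG2, the related protein that is not an SREBP target in the same way, stood at 419 and 711, a difference of 0.77. Both retention proteins were thus higher, while the escort was lower.

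Both sterol transport genes were lower on the SOX2 knockdown array, short of 1.5-fold. STARD4, a soluble sterol carrier and a known SREBP target, stood at 455 and 305 (-0.58). NPC1, which moves cholesterol out of lysosomes, stood at 777 and 629 (-0.31).

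Of 4 genes of fatty acid synthesis, 1 was past 2-fold. ACACA, acetyl-CoA carboxylase, which makes malonyl-CoA, stood at 823 and 2004, a difference of 1.28, or 2.44-fold, and its other probe set at 235 and 381, a difference of 0.70. FASN, the synthase that uses malonyl-CoA, stood at 403 and 264, a difference of -0.61, and its other probe set at -0.20. The carboxylase and the synthase therefore lay on opposite sides of 0 in every probe set. ACLY, which makes cytosolic acetyl-CoA from citrate, stood at 4824 and 4133 (-0.22), with both other probe sets at -0.18. ACSS2, which makes it from acetate, stood at 264 and 234 (-0.18).

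To see whether differences were shared along a chromosome, each member was set beside the 10 nearest measured genes on each side. SQLE, on chromosome 8, lay among genes that were also higher on the SOX2 knockdown array: 17 of its 20 neighbours lay above 0 and 14 were at least 2-fold higher, with a median of 1.46. Of those 14, FBXO32, ANXA13 and ZNF572 were under the floor on the mock array, and could pass it only by being higher. Among the nearest genes that reached the floor on both arrays the median was 1.40, and 14 of 20 were at least 2-fold higher. Medians as high or higher were found around 0.132% of all genes. Adjacent genes share most of their neighbours, so that share does not count separate regions. The neighbour RNF139 differed by 1.97, WASHC5 by 1.51, TATDN1 by 1.42, NSMCE2 by 1.27 and NDUFB9 by 0.94, while TYW2 differed by -1.65. A run of adjacent genes on the far side did not share the rise. There MYC stood at 4894 and 3272 (-0.58), POU5F1B differed by 0.22, PVT1 by 0.12 and GSDMC by 0. PVT1 was dim, at 75.5 and 81.9. Past that run the next genes were higher again, CYRIB by 1.37 and ASAP1 by 1.35. SQLE exceeded 16 of the 20. The difference of SQLE was thus shared by most genes around it, and the part of the chromosomal region in it was not tested.

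ACACA, on chromosome 17, had a neighbour median of 0.53, with 14 of 20 above 0, and exceeded 17 of them. Around NSDHL on the X chromosome the median was 0.39, with 15 of 20 above 0, but 0.074 over the 5 nearest on each side and 0.15 with genes at the floor or above on both arrays. EBP, also on the X chromosome, was lower like 18 of its 20 neighbours, whose median was -0.32. MSMO1 was lower beside a median of -0.43, with 13 of 20 neighbours below 0 and 7 above. With genes at the floor or above on both arrays that median was -0.66, with 16 of 20 below 0. TM7SF2, in contrast, lay above all 20 of its neighbours, whose median was 0.0032 and of which none was past 2-fold. PMVK and INSIG2 lay among genes with medians of 0.092 and 0.18, well under their own 0.81 and 0.77.

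**Figure D3:**
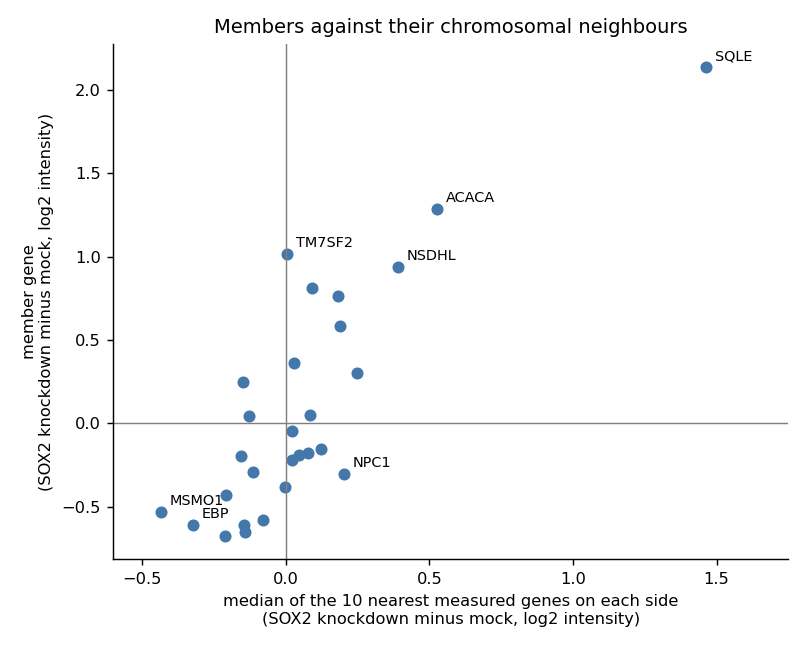
Difference of each of the 28 members (vertical) against the median difference of the 10 nearest measured genes on each side (horizontal, 16 or 17 genes in all near a chromosome end), both SOX2 knockdown minus mock on the log2 scale. SQLE lies at the upper right with neighbours at 1.46, and TM7SF2 lies above 1 with neighbours at 0.0032.

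Across the 28 members the difference of the gene and the median of its neighbours had a Pearson correlation of 0.82. It was 0.73 without SQLE and 0.65 without SQLE and ACACA, and 0.24 across 13585 genes with a place in the gene order. All members reached the floor on both arrays, but those 13585 genes include some that did not, so the sets are unlike. All these points come from the same pair of arrays, and neighbourhoods of nearby genes share members, so the values describe these arrays only. In 20 of the 28 members the sign was that of the neighbours' median (71.4%), as it was for 60.3% of all genes.

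Beyond the members, 57 other genes of sterol and fatty acid metabolism were listed, of which 49 reached the floor. Of these, 7 were at least 2-fold higher and 6 at least 2-fold lower, or 26.5% together, where 15.7% of all genes were. ABCG1, SOAT1 and VLDLR reached the floor on 1 array only and so had to differ. Over the 46 genes that reached it on both arrays, 6 were higher and 4 lower, 21.7% together, where 12.3% of such genes were. The lists were chosen with earlier results of these data known, which can raise such shares, so no excess is read from them. Among genes that cleave SREBPs or control sterol-dependent decay, MBTPS2, the second protease in SREBP release, stood at 1327 and 435 (-1.61), with a further probe set at 85.2 and 54.2, under the floor, a difference of -0.31 or lower. MBTPS1, the first protease, stood at 601 and 712 (0.24), so the paired proteases differed by unlike amounts. RNF139, a sterol-regulated ubiquitin ligase and a neighbour of SQLE, stood at 598 and 2342 (1.97), and ERLIN1 differed by 0.75. ERLIN2 stood at 608 and 230 (-1.40), but another of its probe sets at 24.8 and 199.9.

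Liver X receptors answer to oxysterols and turn on genes of sterol export and of receptor decay. Of 6 genes on that list 4 reached the floor and 3 were at least 2-fold higher, where 8.44% of all genes were. ABCG1 is among the 3 and reached the floor only on the SOX2 knockdown array. Over the 3 genes that reached it on both arrays, 2 were higher and the median was 1.53. Of all such genes 12.3% were past 2-fold either way, and a list this short gives no share to set beside it. MYLIP, the ligase that degrades lipoprotein receptors, stood at 127 and 552, a difference of 2.12, and 4 other probe sets reaching the floor gave 0.30 to 2.14. ABCG1, a sterol exporter, stood at 63.4, under the floor, and 253, a difference of at least 1.89, with a further probe set at 13.3 and 271. NR1H3, the receptor LXR alpha, stood at 191 and 552 (1.53), while LPCAT3 differed by -0.0054. ABCA1, the other main exporter, stayed under the floor on both arrays.

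Receptors of the lipoprotein receptor family went opposite ways. LRP8 stood at 341 and 1762, a difference of 2.37, and its other probe sets gave 2.35 and 3.20. VLDLR, its close relative, stood at 223 and 43.6, under the floor, a difference of -1.70 or lower. On the same list CYB5B, a cytochrome b5 of the mitochondrial outer membrane, stood at 3377 and 961 (-1.81), its other probe sets gave -2.37 to -1.69, and TMEM97, a sterol-responsive partner of NPC1, stood at 1468 and 2536 (0.79).

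Of 9 measured genes of sterol esters and trafficking, 1 was at least 2-fold higher and 1 lower. SOAT1, which esterifies cholesterol for storage, stood at 264 and 40.8, under the floor, a difference of -1.95 or lower, and its next probe set at 231 and 13.9. GRAMD1B, which moves sterol from the plasma membrane, stood at 251 and 623 (1.31), and its relative GRAMD1A at 316 and 163 (-0.96). Of 10 genes of fatty acid supply, SLC25A1, the citrate carrier, stood at 498 and 1026 (1.04) and the elongase ELOVL6 differed by 0.79. MID1IP1, which promotes polymerization of acetyl-CoA carboxylase, stood at 351 and 138 (-1.35). None of 11 genes of the isoprenoid branch was past 2-fold in its brightest probe set. FNTA, the shared subunit of protein prenyltransferases, was lowest at -0.99, and ICMT, which methylates prenylated proteins, highest at 0.68. A further probe set of each was past 2-fold, at -1.12 for FNTA and 1.19 for ICMT.

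**Figure D4:**
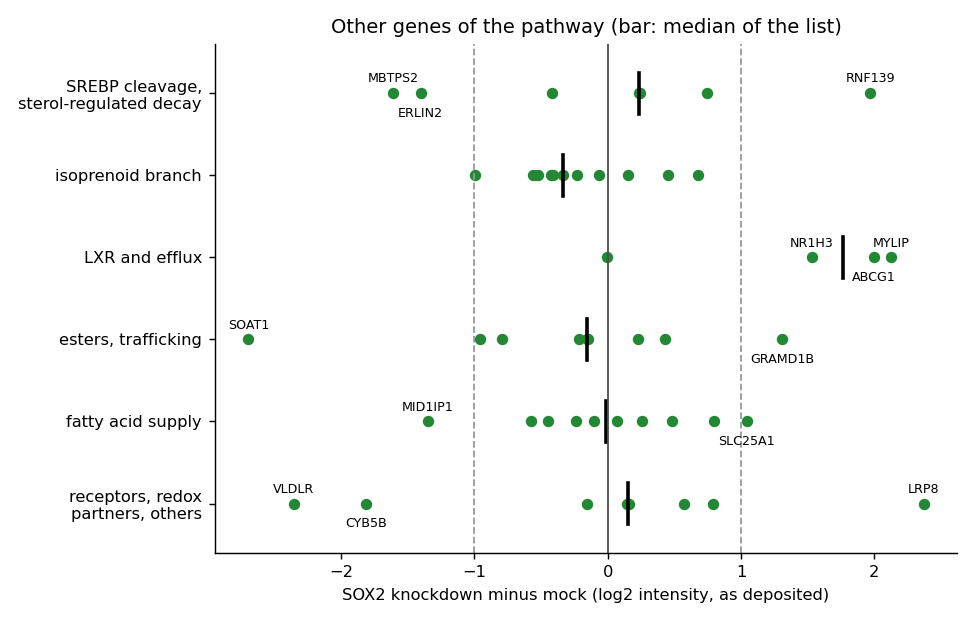
Difference of 49 other genes of the pathway by list, SOX2 knockdown minus mock on the log2 scale as deposited, with 2-fold dashed and the median of each list as a bar. The LXR and efflux list has its median at 1.76 with ABCG1, under the floor on the mock array, included, and the other medians lie between -0.34 and 0.23.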

How the data were processed

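Per the labels' protocols, Trizol RNA was made into biotinylated cRNA and hybridized to 1 Affymetrix array per culture. The authors deposited 1 linear intensity for each probe set on each array, produced by RMA according to the submitters' processing notes, whose version and settings the sources used here do not give. RMA makes the arrays' distributions alike, which hides any change in RNA content of the cells. From these intensities, log2 differences (SOX2 knockdown minus mock) were taken with no pseudocount.

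Of 54675 probe sets, 62 were controls; a platform annotation gave 1 symbol to 41091, several to 1801 and none to 11721. Entrez identifiers placed 41037 in a RefSeq gene table of GRCh38.p14, used for names and gene order, with 0 symbols changed. Each gene took its probe set of highest mean log2. Genes were counted past 2-fold, and no test was made.

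Members and lists were chosen with earlier results of these data known. Named were all members, SOX2, markers, and up to 2 genes per other list and direction past 1.5-fold; NR1H3, MBTPS1, LPCAT3, ABCA1 and neighbours of SQLE were named after their values were seen. The counting and neighbour steps were tested on simulated data. Alternatives were other normalizations, floors, probe sets, limits and a pseudocount. Python 3.11.15, numpy 2.4.6, pandas 2.3.3, statsmodels 0.14.6 and matplotlib 3.10.9 were used.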

Additional observations from a re-analysis of the deposited data

How the results depend on the processing

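Directions held for 25 of 28 members under each planned setting that could be run for them; IDI1, SREBF1 and SREBF2 changed sign with the choice of probe set or normalization. SQLE stayed between 2.07, as deposited from a probe set under the floor on the mock array, and 2.16. With the probe set of smallest difference ACACA was at 0.70, FASN at -0.20 and IDI1 at -0.071, and NSDHL was at 1.43 when probe sets with a suffix for several transcripts were left out. TM7SF2 dropped under 2-fold with quantile normalization (0.98) and a pseudocount of 32 (0.93). Members past the limit were 6 higher and 4 lower at 1.5-fold and 1 higher at 3-fold, where all genes past it went from 2140 to 4056 and 1071. The median of the members was negative in each setting, from -0.20 to -0.10, but their mean was 0.089, SQLE at 2.13 being far above the rest. Settings chosen after seeing the data left 1 member past 2-fold without SQLE and ACACA, and 1 rather than 2 members with a neighbour median past 0.5 either way when 5 neighbours a side were used, or 3 with genes at the floor or above on both arrays. SOX2 differed by -6.64 as deposited, -5.32 with the pseudocount, -4.92 with values under the floor raised to it, -2.15 over the mean of its probe sets and -1.47 in the probe set of smallest difference. Leaving out suffixed probe sets kept 18 members, TM7SF2 not among them. Of these 18, 3 were at least 2-fold higher: SQLE, ACACA and NSDHL. No paired analysis was possible because each group held 1 array. Dim values are limited by background, which these summarised intensities do not give.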
